A study of Mus musculus with 23 samples.

Results

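The comparison described here is the knockdown (KD) of Mlx in mouse 2-cell embryos. Its members were chosen by their labels, as the 3 libraries of siMlx 2-cell embryos and the 3 libraries of siCtrl 2-cell embryos, 6 of the 23 libraries of the series. Oocytes at the germinal vesicle stage, from females on the B6D2F1 background (C57BL/6 crossed with DBA/2), received a mix of siRNAs against Mlx or a control siRNA, were matured in vitro and were then fertilized. The labels describe incubation with sperm, while the methods of the study describe sperm injection. Embryos were collected as pools at the 2-cell stage, 36 h post fertilization (hpf) by the labels, after the zona pellucida had been taken off with protease. All 6 libraries therefore share injection, in vitro maturation and zona removal. Zygotes from oocytes that received the same siRNAs, collected at 14 hpf by the labels (3 libraries a group), were used only to place the result. So were 2-cell embryos from oocytes that received a mix of siRNAs against Etv5 (siEtv5, 2 libraries). The methods of the study give later collection times than the labels for both stages. The methods say that RNA-seq was repeated for each group, without saying whether each library came from embryos collected separately, and a p-value here speaks only of the spread among these libraries, some of it possibly technical.

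MLX is a basic helix-loop-helix leucine zipper protein. It dimerizes with the glucose-sensing Mondo factors MLXIP (MondoA) and MLXIPL (ChREBP), and these dimers bind carbohydrate response elements built from E-boxes of the form CACGTG, close to genes of glucose uptake, glycolysis and lipid synthesis. MLX also pairs with MXD proteins of the wider MAX network, to which MYC belongs. In the mouse, the 2-cell stage is when maternal RNAs are being cleared and the major wave of zygotic genome activation (ZGA) takes place, with a short burst of Zscan4, Tdpoz and other 2-cell genes.

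Values are FPKM (fragments per kilobase of transcript and per unit of library size), summed over the transcripts of a gene and rescaled between libraries. A difference is given as the log2 fold change of siMlx against siCtrl on the log2(FPKM + 1) scale, on which changes of low genes come out too small. The siMlx libraries held 404, 616 and 741 Mb of aligned bases and the controls 727, 781 and 967 Mb, so that siMlx replicates 1 and 2 were shallower than every control. The 3 siMlx libraries held 8904 to 10251 genes at 1 FPKM or more, against 10567 to 10729 in the controls. The correlation of log2 values between control libraries was 0.899 to 0.906, and that of siMlx replicate 1 with the controls was 0.803 to 0.821. The part that these differences in depth play in the results was not tested.

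The targeted transcript was examined before any other gene. Mlx was at 2.42, 4.42 and 3.74 FPKM as deposited in siCtrl replicates 1, 2 and 3, and at 0.836, 2.26 and 4.05 FPKM in the libraries labelled siMlx replicates 1, 2 and 3. The first and second of these siMlx values lay below every control, and the value of the library labelled siMlx replicate 3 lay within the control range. The log2 fold change was -0.36 (SE 0.45, limma adjusted p = 0.690), and an exact permutation test of the deposited FPKM gave p = 0.4 (two-sided), where 3 libraries against 3 cannot go below 0.1. The difference was therefore not larger than the spread between libraries. In zygotes the same gene was at 1.84, 3.63 and 4.25 FPKM in siCtrl and at 0.469, 0 and 0.442 FPKM in siMlx, and these groups did not overlap (exact permutation p = 0.1, the smallest this design allows).

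The place of the reads within Mlx bears on that value. In mm9, Mlx is a plus-strand gene of chromosome 11, and its last exon (chr11:100952423-100953521, 1099 bases) shares 67 bases with the last exon of Psmc3ip (chr11:100953455-100953770), a recombination factor gene on the minus strand. The libraries do not mark strand, so reads from these bases cannot be assigned to either gene. In all 3 control 2-cell libraries and in the library labelled siMlx replicate 3, the whole of the Mlx coverage lay in this last exon. Exons 3 to 7 were at 0 in all 6 libraries. Exons 1 and 2, which do not overlap Psmc3ip, were at 0 in the controls and in the library labelled siMlx replicate 3, and were covered in siMlx replicate 1 (1.31 and 2.91 in FPKM units) and siMlx replicate 2 (5.68 in both exons), where 74.5 and 64.7% of the Mlx coverage lay in the last exon. Coverage of the last exon, scaled to FPKM units, was 4.36, 7.94 and 6.72 in siCtrl and 1.12, 2.62 and 7.28 in siMlx. The last exon of Psmc3ip was far more abundant, at 52.3, 58.7 and 59.4 in siCtrl and 32.2, 19.3 and 55.7 in siMlx. Its level over the shared 67 bases, averaged over the whole Mlx exon, comes to 3.19, 3.58 and 3.62 in siCtrl and 1.96, 1.18 and 3.39 in siMlx. If that level held over the shared bases, it would leave 1.17, 4.36 and 3.10 in siCtrl and -0.85, 1.45 and 3.89 in siMlx. On that scale siMlx replicate 2 and the library labelled siMlx replicate 3 both lay within the control range. Only siMlx replicate 1 lay below every control. Its value below 0 cannot be a coverage, so the assumed level did not hold there, and this scale cannot place the libraries. In the plot of the targeted gene, the library labelled siMlx replicate 3 is the highest of the siMlx group in both exons. For the shared bases the reads of Mlx and Psmc3ip cannot be told apart. In zygotes the last exon of Psmc3ip reached at most 5.75. Counts of calls below are therefore given with and without the library labelled siMlx replicate 3.

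**Figure D1:**
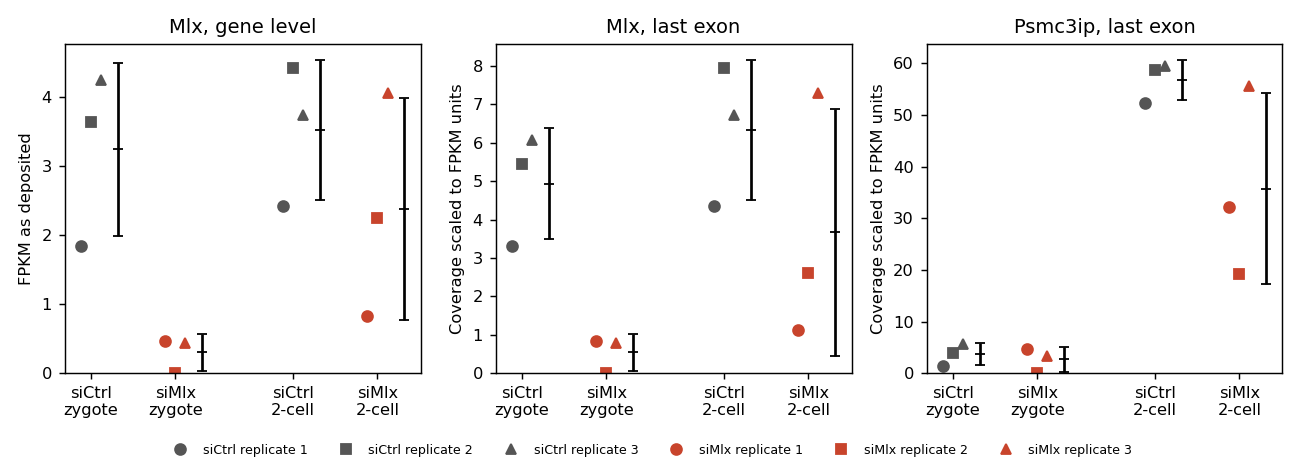
Level of the targeted gene by library. The panels show Mlx in FPKM as deposited, coverage of the last Mlx exon and coverage of the last Psmc3ip exon (both scaled to FPKM units), with a symbol per library and bars for mean and SD (n = 3). In 2-cell embryos the library labelled siMlx replicate 3 sits with the controls in every panel (4.05 FPKM for Mlx), while in zygotes all siMlx values for Mlx are at or below 0.469 FPKM.

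Of 10584 genes tested, 1 was called, by an adjusted p below 0.05 with more than a 2-fold difference (0.00945%). This gene was Mir451, the precursor locus of miR-451a, a microRNA best known from red blood cell formation, whose precursor is cleaved by AGO2 in place of Dicer. Mir451 spans 72 bases on the plus strand (chr11:77886672-77886743, mm9). Its mature and hairpin sequences are shown because it is the sole gene called, with the seed (bases 2 to 8) of the mature RNA in capitals, and with the mature RNA in capitals within the hairpin. The mm9 sequence of the locus is the same as the RefSeq hairpin (GRCm38.p6).
mmu-miR-451a: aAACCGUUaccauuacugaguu
Mir451 hairpin: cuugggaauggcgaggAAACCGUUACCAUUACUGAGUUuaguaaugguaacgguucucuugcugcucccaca
Mir451 was at 49.0, 47.2 and 57.1 FPKM in siCtrl and at 0, 2.03 and 0 FPKM in siMlx. All siMlx libraries were far below all controls, and the log2 fold change was -5.17 (SE 0.47, limma adjusted p = 0.0228). The call held when any siMlx library was left out (adjusted p = 0.0211 without the library labelled siMlx replicate 3) and was lost when any control was left out (adjusted p = 0.0726 to 0.185). In siEtv5 embryos, whose values here and below were rescaled together with the siMlx libraries, the locus was at 9.77 and 14.3 FPKM, between siMlx and siCtrl. Libraries of this kind are primed on poly(A) tails, so these reads would come from a longer precursor transcript that covers the locus and not from the mature microRNA. Coverage around the locus was not examined, and the origin of the reads was not tested. With 72 bases a few fragments give a high FPKM, and Mir451 is not among the genes tested when those under 200 bases are removed. The call was also lost with no low-expression filter, a pseudocount of 0.1, voom and all groups in the fit.

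Mir144, the partner of Mir451 in the same cluster, begins upstream of it (chr11:77886507-77886572). It was at 26.7, 19.7 and 7.08 FPKM in siCtrl and at 0, 4.05 and 4.04 FPKM in siMlx. The groups did not overlap, but the difference did not pass (log2 fold change -2.50, SE 0.71, limma adjusted p = 0.151). The alpha-globin gene Hba-a2, another product of red blood cells, was at 28.4, 65.4 and 35.7 FPKM in siCtrl and at 0, 5.11 and 12.7 FPKM in siMlx (log2 fold change -3.25, limma adjusted p = 0.136, and 0.0383 without the library labelled siMlx replicate 3). Its near-identical copy Hba-a1 was at 0, so how their shared reads were split is uncertain. Over all 11 blood and immune markers the summed FPKM ranged from 39.4 to 84.6 in siCtrl and from 1.41 to 17 in siMlx. Of these, 4 were tested, and 3 of the 4 were below every control (75.0%, against 15.0% over all genes tested). Their median log2 fold change was -2.05, against -0.05 over all genes tested, while Hba-a1, Hbb-b2, Ptprc and Csf1r were at 0. In bulk samples fewer cells of a type and less RNA per cell cannot be told apart. The part of blood cells in the level of Mir451 was not tested.

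Beyond that gene, 24 genes shared the next adjusted p of 0.0506, just outside the threshold, and 171 genes were under 0.10 (1.62%), of which 37 had higher and 134 had lower values in siMlx. Every siMlx library was above every control for 1156 genes (10.9%) and below every control for 1586 genes (15.0%). An unadjusted p under 0.05 was reached by 1982 genes (18.7%). Requiring a mean of 1 FPKM before rescaling in place of after it changed the genes tested to 10653, and 11 genes were then called (0.103%, 1 higher and 10 lower, adjusted p up to 0.0497). With FPKM as deposited and no rescaling, which otherwise divided siMlx replicate 1 by 0.706, 76 of 10653 genes were called (0.713%, 12 higher and 64 lower), and the median log2 fold change over all genes was -0.27. Mir451 and the 24 genes, 25 in all, were each called without the library labelled siMlx replicate 3. The genes described next did not pass with all 6 libraries and are given as values.

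Genes with lower values in siMlx are taken first. Uts2r, which encodes the receptor of urotensin II, was at 12.3, 25.9 and 17.7 FPKM in siCtrl and at 1.81, 0.260 and 0 FPKM in siMlx (log2 fold change -3.63, SE 0.49, limma adjusted p = 0.0506). Shisa5, which encodes a membrane protein linked to cell death, was at 12.7, 8.11 and 14.2 FPKM against 0, 1.23 and 0.344 FPKM (log2 fold change -3.10). Slco4a1, an organic anion transporter gene, was at 19.4, 32.0 and 28.4 FPKM against 1.15, 4.25 and 5.34 FPKM (log2 fold change -2.70, limma adjusted p = 0.0612). For all 3 genes every siMlx library lay below every control.

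Id2, which encodes an inhibitor of basic helix-loop-helix factors, was at 81.1, 66.9 and 90.9 FPKM in siCtrl and at 17.5, 23.7 and 23.9 FPKM in siMlx (log2 fold change -1.83, SE 0.28, limma adjusted p = 0.0506). In siEtv5 embryos Id2 was at 50.6 and 66.3 FPKM, also above all siMlx libraries. Elf3, an epithelial ETS factor gene, was at 18.2, 15.1 and 16.3 FPKM against 3.29, 0.871 and 1.85 FPKM (log2 fold change -2.62). The alpha-tubulin genes Tuba1b and Tuba1c, whose sequences are near-identical and whose shares of reads are uncertain, had log2 fold changes of -2.38 and -2.30. Tuba1b was at 71.0, 75.3 and 85.9 FPKM in siCtrl and at 8.18, 18.3 and 18.3 FPKM in siMlx. Tmsb4x, which encodes the actin-binding thymosin beta-4, was at 55.3, 72.0 and 79.0 FPKM against 1.57, 15.3 and 12 FPKM (log2 fold change -3.08, SE 0.63, limma adjusted p = 0.0856).

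Psrc1, which encodes a spindle protein, was at 8.42, 8.46 and 8.65 FPKM in siCtrl and at 0.575, 0.224 and 1.02 FPKM in siMlx (log2 fold change -2.59). Pif1, a DNA helicase gene, was at 34.7, 23.8 and 31.9 FPKM against 6.03, 6.14 and 6.29 FPKM (log2 fold change -2.11). Vps29, which encodes a subunit of the retromer, was at 37.2, 27.9 and 32.7 FPKM against 3.77, 7.51 and 6.55 FPKM (log2 fold change -2.31). Sepw1 (selenoprotein W) was at 99.0, 143 and 103 FPKM against 27.9, 30.4 and 36.0 FPKM (log2 fold change -1.82). Rab7l1, a small GTPase gene of vesicle traffic, was at 49.6, 52.6 and 59.6 FPKM against 14.9, 11.4 and 14.0 FPKM (log2 fold change -1.93). For these 5 genes the siMlx values differed little among themselves compared with their distance from the controls. They were named for a low p, which favours such values.

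Among the genes with higher values were several that the controls barely held. Hcrt, the precursor gene of the orexin neuropeptides, was at 0, 3.02 and 0 FPKM in siCtrl and at 171, 38.4 and 21.2 FPKM in siMlx (log2 fold change 5.06, SE 0.80, limma adjusted p = 0.0521). Hand1, a basic helix-loop-helix factor of trophoblast and heart, was at 0, 2.64 and 0 FPKM against 151, 42.8 and 16.1 FPKM (log2 fold change 4.98, limma adjusted p = 0.0521). Tcf15, a basic helix-loop-helix factor of early epiblast and paraxial mesoderm, was at 2.22, 6.90 and 5.16 FPKM against 121, 62.1 and 12.2 FPKM (log2 fold change 3.11, limma adjusted p = 0.12). In all 3 genes siMlx replicate 1 had the highest value and the library labelled siMlx replicate 3 had the lowest of the siMlx group, still above every control. In siEtv5 embryos Hcrt was at 5.18 and 8.86 FPKM and Hand1 was at 1.18 and 1.27 FPKM, below all siMlx libraries.

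Other higher values were more even. Mif, which encodes macrophage migration inhibitory factor, was at 31.9, 39.2 and 29.8 FPKM in siCtrl (33.6 ± 4.92, SD, n = 3) and at 111, 126 and 147 FPKM in siMlx (128 ± 18.4, SD, n = 3), with a log2 fold change of 1.90 (SE 0.27, limma adjusted p = 0.0506). Its siEtv5 values, 50.3 and 55.3 FPKM, lay below every siMlx library. Tob1, an antiproliferative gene, was at 6.46, 3.16 and 2.97 FPKM against 57.1, 39.2 and 20.8 FPKM (log2 fold change 2.90, limma adjusted p = 0.0506). Its siEtv5 values of 31.4 and 23.7 FPKM were inside the siMlx range. Hist1h2bh, a replication-dependent histone gene with close paralogs, was at 1.05, 0 and 0.287 FPKM against 12.4, 16.9 and 6.96 FPKM (log2 fold change 3.17, limma adjusted p = 0.0506). Ccdc166 was at 5.26, 13.2 and 6.78 FPKM against 83.5, 75.2 and 35.6 FPKM (log2 fold change 2.80, limma adjusted p = 0.0521).

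The plot of the leading genes also holds short transcripts and genes near 0, among them Mir451 and 3 small nucleolar RNAs. A second microRNA locus, Mir717 (chrX:49775584-49775692, minus strand), is given because it was at 12.7, 11.2 and 5.54 FPKM in siCtrl and listed at 0 in all 3 siMlx libraries, so no fold is given. Its mature sequence from RefSeq, with the seed in capitals, shares no seed with miR-451a.
mmu-miR-717: cUCAGACAgagauaccuucucu

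Leaving out the library labelled siMlx replicate 3 changed the count of calls most. With siMlx replicates 1 and 2 alone, 205 genes were called higher (1.94% of 10574 tested) and 166 were called lower (1.57%). In that library, 345 of these 371 genes had a difference of the same sign, and for 313 of the 371 the groups did not overlap over all 6 libraries. Over all genes tested, every siMlx library was above every control for 10.9% and below every control for 15.0%. The median difference from the control mean over the 205 higher genes was 2.58 in siMlx replicate 1, 1.51 in siMlx replicate 2 and 0.59 in the library labelled siMlx replicate 3. Over the 166 lower genes it was -2.35, -1.97 and -1.21. The rule behind these medians used the first and second value of each set and not the last. The calls and all these differences use the same controls, which favours the same sign and no overlap. The library labelled siMlx replicate 3 is therefore no independent check of these calls. Without siMlx replicate 1, 68 genes were called (0.631% of 10773), of which 48 were also among the 371. An adjusted p without the library labelled siMlx replicate 3, given for some genes, thus comes from the setting with the most calls. Gm20604 was carried by siMlx replicates 1 and 2, at 0.520, 0.598 and 0.462 FPKM in siCtrl and at 49.8, 64.4 and 0.859 FPKM in siMlx (log2 fold change 5.22 without the library labelled siMlx replicate 3, limma adjusted p = 0.00714, and 3.59 with it, adjusted p = 0.179). Its siEtv5 values, 0.486 and 35.2 FPKM, were as far apart. Exons of Gm20604 overlap those of AK010878 and Moap1 on the same strand, so its share of reads is uncertain.

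The siEtv5 embryos gave a reference that shares no library with siCtrl. Against them 3 of 10596 genes were called in siMlx (0.0283%). Among genes described in this report, siEtv5 and siMlx values overlapped for some, such as Pkm and Gpd1. For others, such as Ddit3 and Hmox1, every siMlx library lay below both siEtv5 libraries. Over all 10596 genes this was so for 2594, and every siMlx library lay above both siEtv5 libraries for 1931. The siMlx libraries are the same as in the comparison with siCtrl, so genes named as low or high in siMlx are favoured to lie apart again. Gm5039, a 2-cell gene, was at 184 and 178 FPKM in siEtv5 and at 4.79, 8.24 and 10.6 FPKM in siMlx (log2 fold change -4.42, limma adjusted p = 0.0431). Gpx2 encodes a selenium-dependent peroxidase. It stood at 21.7 and 21.8 FPKM in siEtv5 and at 0, 0 and 0.312 FPKM in siMlx, while the siCtrl libraries were also near 0 (0.712, 0 and 0 FPKM). Mir17hg, the host transcript of the miR-17 cluster, was listed at 0 by the siEtv5 libraries and reached 20.5, 30.1 and 40.4 FPKM in siMlx, with 20.6, 0 and 0 FPKM in siCtrl.

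The partners of MLX come first among the fixed groups of genes. The list of the MLX, Mondo and MAX network had 12 of 13 genes tested. None was called, none had groups that did not overlap, and 9 had positive log2 fold changes (median 0.04, against -0.05 over all genes tested). Mlxip was at 19.2, 19.3 and 17.8 FPKM in siCtrl and at 39.2, 22.1 and 15.8 FPKM in siMlx (log2 fold change 0.34, SE 0.36). Mlxipl was at 10.2, 14.3 and 15.8 FPKM against 23.6, 11.3 and 9.24 FPKM (log2 fold change 0.04, SE 0.40), and its sign turned under some alternatives. For both Mondo genes siMlx replicate 1 was above the controls and the library labelled siMlx replicate 3 was below them. Max, the common partner of the MYC and MXD proteins, was at 23.8, 18.7 and 21.0 FPKM against 14.3, 19.1 and 10.8 FPKM (log2 fold change -0.52, SE 0.31). The targets of the other siRNAs were not called either. Rfx1 was at 9.85, 7.95 and 7.31 FPKM in siCtrl and at 4.08, 2.82 and 1.71 FPKM in siMlx, below every control (log2 fold change -1.31, limma adjusted p = 0.154, and exact permutation p = 0.1 on the deposited FPKM, the smallest this design allows). The siEtv5 values of Rfx1, 3.90 and 4.42 FPKM, overlapped those of siMlx. The groups overlapped for Etv5, at 45.6, 40.0 and 40.2 FPKM in siCtrl and 23.8, 29.9 and 48.4 FPKM in siMlx.

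Genes known as Mondo targets were mixed. Of 26, 20 were tested, and 14 had negative log2 fold changes (median -0.40, against -0.05 over all genes tested). All siMlx libraries were above every control for 1 of them (5.00%) and below for 4 (20.0%), against 10.9 and 15.0% over all genes. Txnip, the thioredoxin-interacting protein gene and the best known MondoA target, was at 21.2, 19.8 and 19.7 FPKM in siCtrl and at 7.45, 19.1 and 24.6 FPKM in siMlx (log2 fold change -0.38, SE 0.42, limma adjusted p = 0.656). Its arrestin relative Arrdc4 was at 11.4, 9.72 and 8.27 FPKM against 16.7, 0.755 and 0.854 FPKM (log2 fold change -1.47, SE 0.81). The groups overlapped for both, for Arrdc4 through siMlx replicate 1 and for Txnip through the library labelled siMlx replicate 3, and without siMlx replicate 1 the log2 fold change of Txnip was 0.13. Klf10, a glucose-responsive repressor gene, was at 11, 4.23 and 8.92 FPKM against 0, 0.806 and 2.10 FPKM (log2 fold change -2.27, limma adjusted p = 0.118, and 0.0475 without the library labelled siMlx replicate 3). Gpd1, which links glycolysis to glycerol lipids, was at 3.12, 2.48 and 3.20 FPKM against 0, 0.257 and 0.802 FPKM (log2 fold change -1.58, limma adjusted p = 0.154). Pfkfb3, which makes the activator of phosphofructokinase, was at 6.69, 6.78 and 6.48 FPKM against 11.2, 13.0 and 11.8 FPKM (log2 fold change 0.77, limma adjusted p = 0.225). Gpd1 and Pfkfb3 thus differed in direction from each other.

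Of the 20 tested Mondo targets, 3 (15.0%) held CACGTG in a window from 250 bases before to 50 bases after the annotated start, the same on either strand. The share over all genes tested was 10.3% (1094 of 10584). These were Arrdc4, Gpd1 and Pfkfb3. Where a gene has several annotated transcripts (8 for Pfkfb3), the start is that of the transcript with the highest mean FPKM in the 6 libraries. The promoters of Arrdc4 and Pfkfb3 are shown as the 250 bases before the start, from mm9, 5′ to 3′ on the strand of the gene, with CACGTG in capitals.
Arrdc4 (chr7:75894125-75894374, minus strand): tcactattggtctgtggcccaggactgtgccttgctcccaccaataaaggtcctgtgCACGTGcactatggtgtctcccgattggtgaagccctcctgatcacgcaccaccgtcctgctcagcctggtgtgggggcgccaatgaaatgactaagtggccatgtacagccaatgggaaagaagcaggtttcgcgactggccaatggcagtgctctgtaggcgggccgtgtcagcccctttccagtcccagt
Pfkfb3 (chr2:11423718-11423967, minus strand): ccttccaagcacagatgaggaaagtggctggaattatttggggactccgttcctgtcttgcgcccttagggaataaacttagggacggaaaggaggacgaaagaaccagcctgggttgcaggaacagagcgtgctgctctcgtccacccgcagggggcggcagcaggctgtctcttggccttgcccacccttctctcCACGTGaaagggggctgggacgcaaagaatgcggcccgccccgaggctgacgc
The E-box begins 193 bases before the start in Arrdc4 and 53 in Pfkfb3. The expression of Arrdc4, Gpd1 and Pfkfb3 in siMlx was, in this order, overlapping with, below and above the controls. The motif was present in 26 of the 205 genes called higher without the library labelled siMlx replicate 3 (12.7%) and in 11 of the 166 called lower (6.63%). It was present in none of Mir451 and the 24 genes at the next adjusted p. A match is a description of letters and does not show that MLX binds there.

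Glucose metabolism was described with all its genes. Of 17 glycolysis genes tested, 12 had negative log2 fold changes (median -0.60, against -0.05 over all genes tested), 6 were below every control and 1 was above (35.3 and 5.88%, against 15.0 and 10.9% over all genes), and none was called with or without the library labelled siMlx replicate 3. Pkm (pyruvate kinase) was at 103, 119 and 109 FPKM in siCtrl and at 41.3, 69.3 and 79.9 FPKM in siMlx (log2 fold change -0.84, SE 0.31, limma adjusted p = 0.213). Ldha (lactate dehydrogenase) was at 13.9, 6.96 and 5.81 FPKM against 0.946, 2.52 and 6.16 FPKM (log2 fold change -1.35, SE 0.54, limma adjusted p = 0.239). Pyruvate and TCA cycle genes had a median of -0.14 over 19 tested, and the pentose phosphate pathway a median of -0.10 over 7. Mpc2, which encodes a mitochondrial pyruvate carrier and which very early embryos depend on for pyruvate use, was at 293, 268 and 185 FPKM against 1192, 598 and 250 FPKM. Its groups overlapped, and it was called higher when the library labelled siMlx replicate 3 was left out (log2 fold change 1.78, limma adjusted p = 0.0477). It was not called when siMlx replicate 1 was left out (log2 fold change 0.69, limma adjusted p = 0.386).

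Lipid and sterol synthesis had 25 genes tested with a median of -0.33. Of these, 5 were below every control (20.0%, against 15.0% over all genes) and 1 was above (4.0%, against 10.9%). Sc5d, which acts late in cholesterol synthesis, was at 9.84, 11.6 and 9.09 FPKM in siCtrl and at 1.65, 2.46 and 1.61 FPKM in siMlx (log2 fold change -1.95, SE 0.35, limma adjusted p = 0.0671). Elovl5, a fatty acid elongase gene, was at 9.07, 9.66 and 9.96 FPKM against 2.06, 2.17 and 1.20 FPKM (log2 fold change -1.93, SE 0.35, limma adjusted p = 0.0700). Both were called lower without the library labelled siMlx replicate 3 (adjusted p = 0.0477 and 0.0491). Dhcr7, the last enzyme of cholesterol synthesis, was at 18.2, 18.5 and 23.4 FPKM against 6.80, 6.22 and 5.06 FPKM (log2 fold change -1.58, limma adjusted p = 0.0781). The siMlx values of all 3 genes were tight and well below the controls. The 3 genes were named for the lowest p of their list, which favours such values.

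Glutathione and antioxidant genes had a lower median, -0.61 over 30 tested, with 11 below every control (36.7%, against 15.0% over all genes) and 3 above. Gss, which encodes glutathione synthetase, was at 4.79, 8.03 and 3.39 FPKM in siCtrl and at 0, 0 and 0.604 FPKM in siMlx (log2 fold change -2.39, limma adjusted p = 0.0799). Its siEtv5 values, 0.272 and 2.10 FPKM, overlapped those of siMlx. Hmox1, the heme oxygenase gene and an NRF2 target, was at 11.4, 33.9 and 22.5 FPKM against 3.96, 4.17 and 3.15 FPKM (log2 fold change -2.19, SE 0.42, limma adjusted p = 0.0781). Prdx2, a peroxiredoxin gene, was at 183, 224 and 224 FPKM against 45.4, 68.3 and 116 FPKM (log2 fold change -1.55, SE 0.36, limma adjusted p = 0.114). Its relative Prdx5 had higher values in siMlx, at 29.6, 43.9 and 36.5 FPKM against 142, 77.3 and 49.99 FPKM (log2 fold change 1.16, limma adjusted p = 0.192). Without the library labelled siMlx replicate 3, Gss, Gstm1 and Prdx2 were called lower and no gene of the list higher.

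Stress and signaling lists had medians near or below that of all genes. Amino acid and unfolded protein stress genes had a median of -0.24 over 31 tested, with 11 below every control (35.5%, against 15.0% over all genes) and 3 above (9.68%, against 10.9%). Ddit3, which encodes the stress factor CHOP and overlaps Mars on the genome, was at 17, 72.3 and 40.6 FPKM in siCtrl and at 4.59, 6.29 and 6.61 FPKM in siMlx (log2 fold change -2.49, SE 0.49, limma adjusted p = 0.0786). Trib3, a target of CHOP, was at 83.4, 95.4 and 90.2 FPKM against 52.9, 41.0 and 36.1 FPKM (log2 fold change -1.05, SE 0.27, limma adjusted p = 0.134). Its siEtv5 values, 42.0 and 41.6 FPKM, were inside the siMlx range. Interferon and chemokine genes had a median of -0.63 over 15 tested, with 6 below every control (40.0%) and 1 above (6.67%), and Bst2, the tetherin gene, was at 33.4, 32.1 and 36.2 FPKM against 16.7, 12.8 and 8.91 FPKM (log2 fold change -1.38). Hypoxia genes had a median of 0.02 over 25 tested and p53 and growth arrest genes a median of -0.11 over 18. The bile acid and organic anion transporters had 3 of 6 genes below every control and a median of -0.48. The NDRG list had 1 of 3 genes, Ndrg1, below every control and a median of 0.05. The other E-box factors had a median of 0.04 over 9 tested.

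Genes of the 2-cell program had mostly lower values in siMlx. Of 35 tested, 31 had negative log2 fold changes (median -0.80, against -0.05 over all genes tested), 12 were below every control (34.3%, against 15.0% over all genes) and none was above. With all 6 libraries none was called, and without the library labelled siMlx replicate 3, 7 were called lower (20.0%, against 1.57% over all genes) and none higher. The list median by library was -1.25 in siMlx replicate 1, -0.76 in siMlx replicate 2 and -0.27 in the library labelled siMlx replicate 3. It was -0.01, -0.23 and 0.30 in siCtrl replicates 1, 2 and 3, so the last siMlx value was close to that of siCtrl replicate 2. Zscan4d, which encodes a zinc finger protein of the 2-cell burst, was at 49.6, 75.3 and 92.1 FPKM in siCtrl and at 13.0, 21.4 and 27.6 FPKM in siMlx (log2 fold change -1.77, SE 0.37, limma adjusted p = 0.0861, and 0.0423 without that library). Zscan4f was at 80.6, 76.0 and 88.0 FPKM against 17.5, 27.2 and 39.4 FPKM (log2 fold change -1.58, SE 0.33, limma adjusted p = 0.0892, and 0.0373 without it). Tdpoz3, of a family of speckle-type BTB proteins, was at 101, 57.9 and 111 FPKM against 9.25, 21.0 and 17.9 FPKM (log2 fold change -2.43, SE 0.39, limma adjusted p = 0.0521). Members of these families are near-identical in sequence, so how reads were split between them is uncertain. Zscan4c was at 150 and 179 FPKM in siEtv5 embryos, above all siMlx libraries (12.2, 23.5 and 34.0 FPKM) and all controls (72.5, 56.4 and 83.8 FPKM). The heat map of this list shows the gradient over the 3 siMlx libraries for most members.

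**Figure D2:**
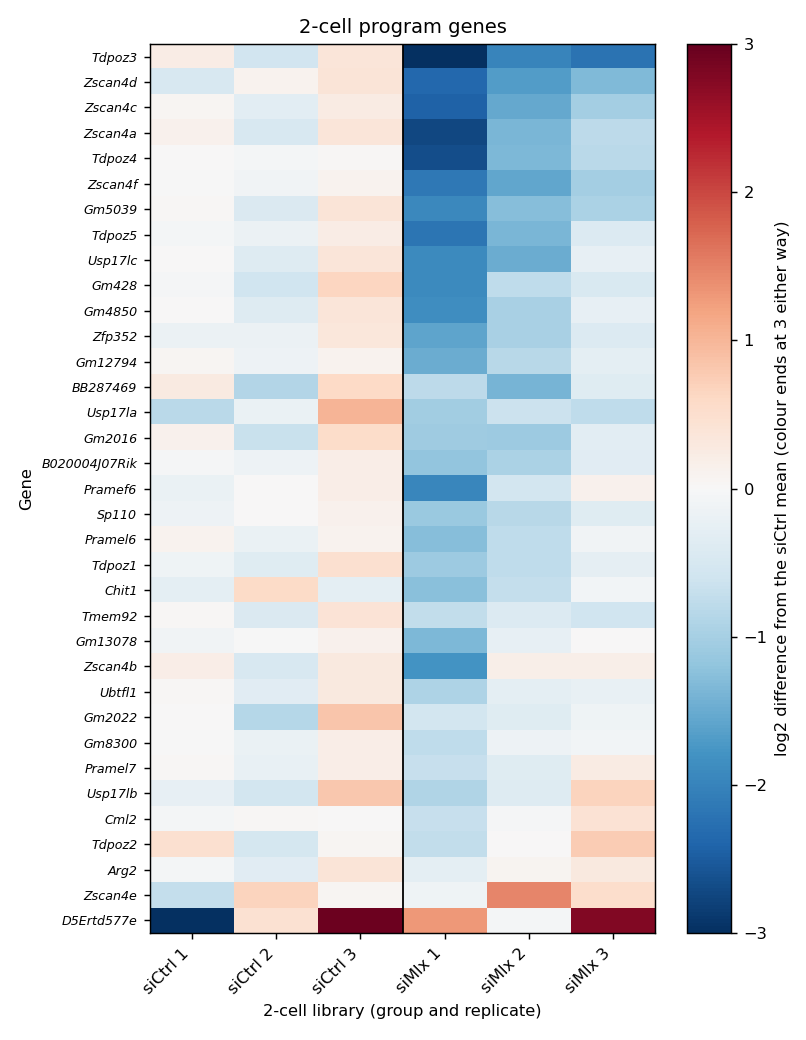
The 35 tested genes of the 2-cell program in each 2-cell library, as the log2 difference from the siCtrl mean, ordered by mean siMlx difference. Blue is lower and red is higher, with colours ending at 3 either way. Most rows are blue in siMlx replicate 1 and paler in the library labelled siMlx replicate 3, and 4 genes had positive fold changes.

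Maternal oocyte genes had a median of -0.31 over 54 tested, with 13 below every control (24.1%, against 15.0% over all genes) and 1 above (1.85%, against 10.9%). Tcl1, an AKT coactivator gene of the oocyte, was at 1215, 1430 and 1391 FPKM in siCtrl and at 261, 385 and 547 FPKM in siMlx (log2 fold change -1.82, SE 0.34, limma adjusted p = 0.0755, and 0.0362 without the library labelled siMlx replicate 3). Its siEtv5 values were 1792 and 1708 FPKM. The related Tcl1b1 was at 1226, 1211 and 1556 FPKM against 250, 333 and 494 FPKM (log2 fold change -1.93, SE 0.34, limma adjusted p = 0.0629), and shares sequence with other Tcl1b genes. Wee2, an oocyte kinase gene that inhibits CDK1, was at 98.3, 77.6 and 98.3 FPKM against 26.4, 31.5 and 46.5 FPKM (log2 fold change -1.40, SE 0.30, limma adjusted p = 0.0904). Of the 54 genes, 35 had negative and 19 had positive log2 fold changes. The gene above every control was Khdc3, a subcortical maternal complex gene, at 7.45, 17.5 and 6.85 FPKM against 129, 74.6 and 30.1 FPKM (log2 fold change 2.66, SE 0.55, limma adjusted p = 0.0861, and 0.0362 without the library labelled siMlx replicate 3). The Obox and early pluripotency list had a median of -0.21 over 30 tested. Within it Klf5, a Kruppel-like factor gene of the morula and blastocyst, was at 70.5, 64.0 and 61.7 FPKM against 503, 189 and 96.2 FPKM, and Prdm14 was at 4.55, 5.16 and 2.64 FPKM in siCtrl and listed at 0 in siMlx. Klf5 was called higher without the library labelled siMlx replicate 3 (log2 fold change 2.22, limma adjusted p = 0.0405) and was not called without siMlx replicate 1 (log2 fold change 1.07, limma adjusted p = 0.153).

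Lists of general cell functions had higher medians. Proteasome genes had a median of 0.34 over 35 tested, with 15 above every control (42.9%, against 10.9% over all genes) and 1 below (2.86%, against 15.0%), and the median difference was 0.46, 0.31 and 0.40 in siMlx replicates 1 and 2 and the library labelled siMlx replicate 3. Psmd12, a subunit of the regulatory particle, was at 29.0, 32.1 and 26.7 FPKM in siCtrl and at 87.4, 51.3 and 53.5 FPKM in siMlx (log2 fold change 1.07, SE 0.30, limma adjusted p = 0.15). Psmb6, a catalytic subunit, was at 26.1, 23.9 and 24.3 FPKM against 49.1, 53.6 and 39.9 FPKM (log2 fold change 0.90, SE 0.27, limma adjusted p = 0.156). No proteasome gene was called with all 6 libraries, and 3 were called higher without the library labelled siMlx replicate 3 (8.57%, against 1.94% over all genes).

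Oxidative phosphorylation genes had a median of 0.29 over 56 tested, with 11 above every control (19.6%, against 10.9% over all genes) and 3 below (5.36%, against 15.0%). Without the library labelled siMlx replicate 3, 6 were called higher (10.7%, against 1.94% over all genes). Atp5c1, which encodes the gamma subunit of ATP synthase, was at 22.7, 33.4 and 30.3 FPKM in siCtrl and at 144, 68.5 and 51.1 FPKM in siMlx (log2 fold change 1.45, SE 0.40, limma adjusted p = 0.145, and 0.0484 without that library). Ndufa6 of complex I was at 22.6, 17.3 and 19.3 FPKM against 81.1, 44.7 and 35.8 FPKM (log2 fold change 1.33, SE 0.35, limma adjusted p = 0.138). Splicing factors had a median of 0.23 over 55 tested (11 or 20.0% above every control, 5 or 9.09% below), ribosome biogenesis 0.15 over 51 (12 or 23.5% above, 2 or 3.92% below) and chromatin regulators 0.22 over 54 (7 or 13.0% above, 5 or 9.26% below). The shares over all genes were 10.9% above and 15.0% below, and the share above of the chromatin regulators is near the first. Snrpa1, a U2 snRNP gene, was at 59.7, 57.0 and 50.8 FPKM against 336, 152 and 140 FPKM (log2 fold change 1.77, SE 0.37, limma adjusted p = 0.0861). Hdac2, a histone deacetylase gene of the NuRD complex, was at 14.1, 11.4 and 12.9 FPKM against 104, 41.5 and 21.7 FPKM (log2 fold change 1.76, SE 0.51, limma adjusted p = 0.154). Both were called higher without the library labelled siMlx replicate 3 (adjusted p = 0.0405). Without siMlx replicate 1 the limma adjusted p was 0.0403 for Snrpa1, 0.149 for Hdac2 and 0.132 for Atp5c1.

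Cell cycle lists had small negative medians. DNA replication genes had a median of -0.20 over 38 tested (5 or 13.2% above every control, 7 or 18.4% below) and mitosis genes a median of -0.29 over 35 (3 or 8.57% above, 7 or 20.0% below). These shares are near the 10.9 and 15.0% over all genes. Orc6, of the origin recognition complex, was at 197, 173 and 145 FPKM in siCtrl and at 92.6, 62.7 and 59.7 FPKM in siMlx (log2 fold change -1.27, SE 0.29, limma adjusted p = 0.111). Its siEtv5 values, 171 and 71.6 FPKM, overlapped those of siMlx. Aurkb, the kinase of the chromosomal passenger complex, was at 54.2, 55.4 and 59.4 FPKM against 37.8, 34.9 and 33.2 FPKM (log2 fold change -0.66, SE 0.25, limma adjusted p = 0.219). Its siEtv5 values, 32.6 and 35.1 FPKM, also overlapped those of siMlx.

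**Figure D3:**
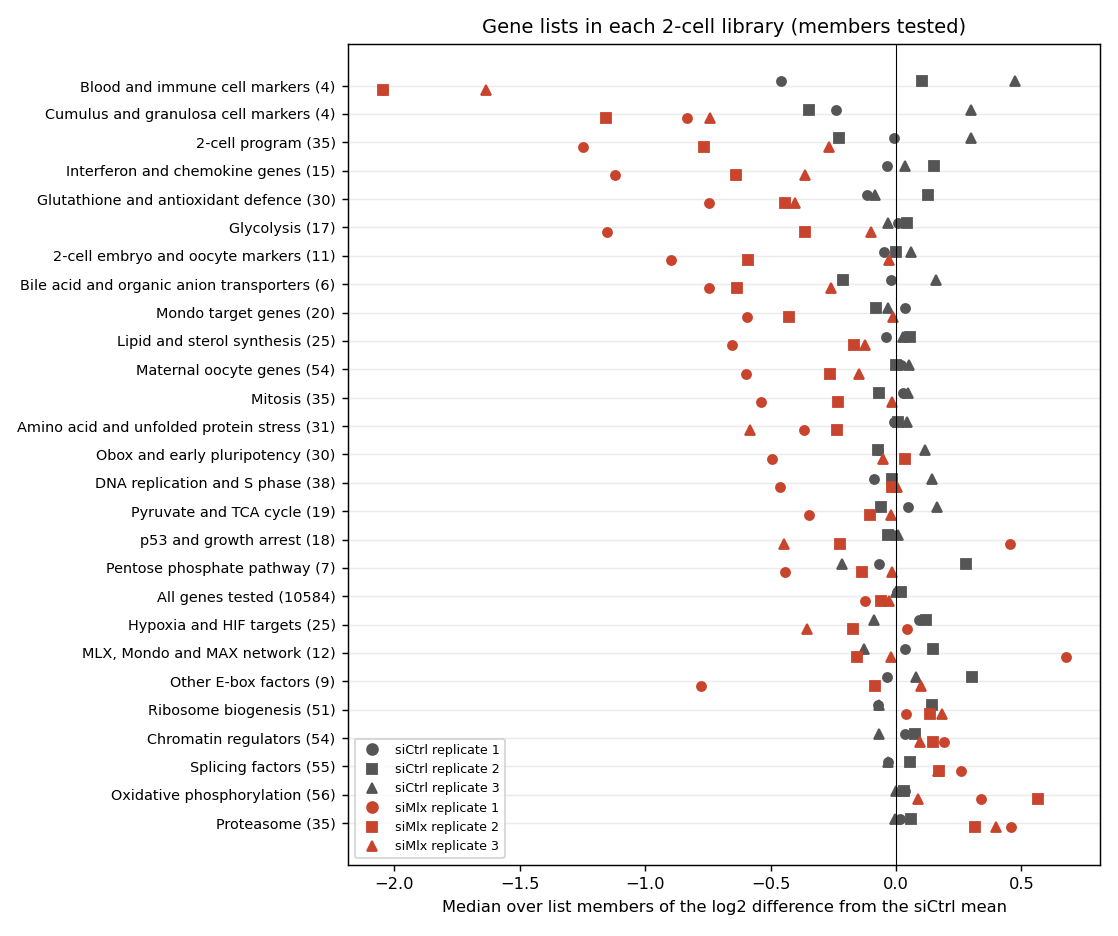
Median log2 difference from the siCtrl mean over the tested members of each gene list, by 2-cell library, with the number of members tested in parentheses and a symbol for each library. The siMlx medians lie left of the controls for the 2-cell program (median fold change -0.80) and right of them for the proteasome (0.34), and for several lists, such as glycolysis, the library labelled siMlx replicate 3 sits nearest the controls.

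The plot of list medians also shows markers of other cell types. The cumulus and granulosa list had 4 genes tested, all with negative log2 fold changes (median -0.91), and its summed level over the whole list ranged from 53.6 to 83.4 FPKM in siCtrl and from 16.2 to 38.4 FPKM in siMlx. Its defining markers Inha, Foxl2, Fshr, Lhcgr and Cyp11a1 were at 0 in these libraries. The member with the lowest p was Tnfaip6, which encodes a hyaluronan-binding protein of the cumulus matrix, at 14.5, 8.90 and 10.4 FPKM in siCtrl and at 0, 0.486 and 1.55 FPKM in siMlx (log2 fold change -2.95, SE 0.46, limma adjusted p = 0.0521). Sperm and spermatid markers had 2 genes tested, with a summed level of 8.54 to 13.4 FPKM in siCtrl and 6.27 to 10.5 FPKM in siMlx. The markers of 2-cell embryos and oocytes had a median of -0.49 over 11 tested. Fewer adhering cells and a lower level of these RNAs in the embryo cannot be told apart, and the part of either in the other results was not tested.

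Whether the effect of siMlx was the same before and after the first cleavage was tested by the difference between the 2-cell and the zygote log2 fold change. This difference was called for 125 genes of 10787, more positive in 2-cell embryos for 21 (0.195%) and more negative for 104 (0.964%). For 9 of the 125 genes all 6 zygote libraries were listed at 0, so the difference there only restates the 2-cell one. The effect was tested at both stages for 94 of the 125 genes. Among the others, Mir451, Ndrg1 and Gstm1 were listed at 0 in most zygote libraries and were not tested there. Their differences mostly restate the 2-cell ones as well. For 85 of the 94 the effect had opposite signs, negative in 2-cell embryos and positive in zygotes for 71 and the reverse for 14. The genes were called for a large difference between the 2 effects, which favours opposite signs. The share of opposite signs over all genes tested at both stages is not given. Slc10a6, a transporter gene for sulfated steroids, was among those with the lowest adjusted p, with a log2 fold change of 0.56 in zygotes and -2.0 in 2-cell embryos (difference -2.60, SE 0.33, limma adjusted p = 0.0102). The count was not stable to the libraries used, ranging from 18 without zygote siCtrl replicate 2 or 3 to 281 without the 2-cell library labelled siMlx replicate 3. It was 0 in a fit with a replicate block.

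Genes of the 2-cell program and of the oocyte were among those that differed by stage. Zscan4c had a log2 fold change of 1.28 in zygotes, where it rose (limma adjusted p = 0.0442), and of -1.66 in 2-cell embryos, a difference of -2.98 (SE 0.52, limma adjusted p = 0.0234). Zscan4d and Zscan4f had differences of -3.13 and -2.71, and these 3 were the members of the 2-cell program called, of 36 tested (8.33%, against 0.964% over all genes). In zygotes the median of the list was 0.73 over 30 tested. From the maternal oocyte list 8 of 53 genes tested were called (15.1%, against 0.964% over all genes), all more negative in 2-cell embryos. They were Zp1, Oosp1, Btg4, Wee2, Spin1, Tcl1, Tcl1b1 and Tcl1b2. Btg4, an adaptor for deadenylation of maternal RNAs, was at 335, 312 and 353 FPKM in siCtrl 2-cell embryos and at 65.5, 158 and 190 FPKM in siMlx, with a difference of -2.29 (limma adjusted p = 0.0484).

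Hes1, a repressor gene of the Notch pathway, had a log2 fold change of 1.82 in zygotes, where it rose (limma adjusted p = 0.0460), and lay at 35.0, 32.1 and 29.8 FPKM in siCtrl and 20.1, 7.62 and 2.29 FPKM in siMlx 2-cell embryos (log2 fold change -1.98, difference -3.84, limma adjusted p = 0.0318). Here the library labelled siMlx replicate 3 was the lowest of all. In the other direction, Gatad2a of the NuRD complex fell in zygotes (log2 fold change -2.10, limma adjusted p = 0.00677), and in 2-cell embryos was at 89.1, 16.7 and 16.2 FPKM in siCtrl and 75.3, 87.4 and 97.0 FPKM in siMlx (difference 3.59, limma adjusted p = 0.0313). Usf2, an E-box factor gene, fell in zygotes (log2 fold change -1.23, limma adjusted p = 0.0317) and was at 0.608, 1.38 and 0 FPKM in siCtrl and 3.34, 1.95 and 2.30 FPKM in siMlx 2-cell embryos (difference 2.27, limma adjusted p = 0.0313). Psmg3, a proteasome assembly chaperone gene, fell in zygotes (log2 fold change -1.62, limma adjusted p = 0.0374) and in 2-cell embryos was at 12.7, 12.2 and 15.6 FPKM in siCtrl and 33.0, 38.1 and 44.1 FPKM in siMlx (difference 3.06, limma adjusted p = 0.0102). The siEtv5 2-cell values of Psmg3, 41.8 and 45.8 FPKM, overlapped those of siMlx.

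**Figure D4:**
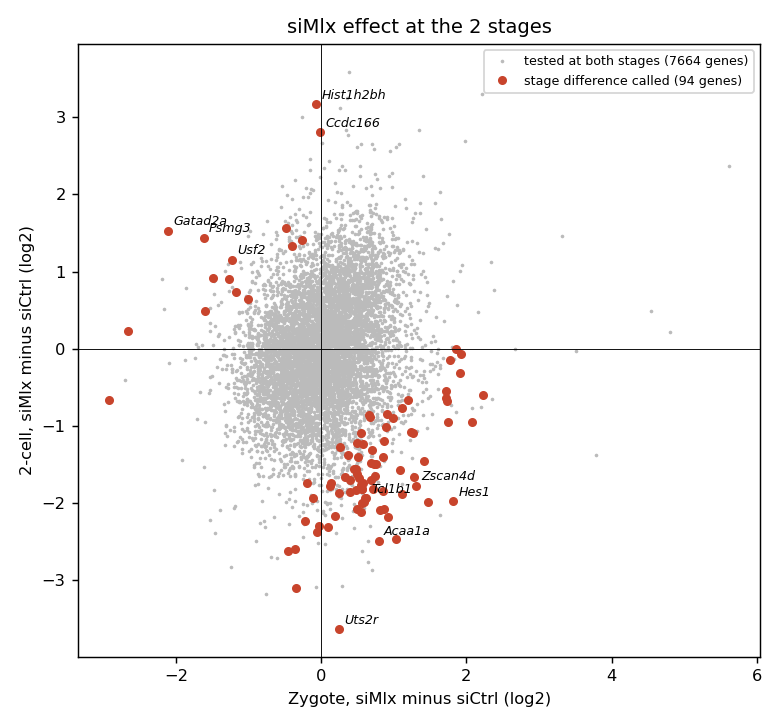
Log2 fold change of siMlx against siCtrl in zygotes (x axis) and in 2-cell embryos (y axis) for the 7664 genes tested at both stages, with red points for the 94 whose stage difference was called. Most red points lie at the lower right, where 71 genes were positive in zygotes and negative in 2-cell embryos. Red points were chosen for a large difference between the 2 effects, which favours opposite signs.

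As the plot of both stages shows, the called differences lay mainly with genes of lower 2-cell values. Genes were also grouped by their course in siEtv5 embryos, which share no library with this comparison. From zygotes to 2-cell embryos, 4130 genes were called higher (37.9% of 10887) and 2501 lower (23.0%). Of the genes that rose, 4031 were tested in siMlx 2-cell embryos, and their median log2 fold change was -0.02, with 546 above (13.5%) and 654 below every control (16.2%). Of the genes that fell, 1888 were tested, with a median of -0.07 and with 161 above (8.53%) and 257 below every control (13.6%). The shares over all genes were 10.9% above and 15.0% below. Both medians were close to the -0.05 over all genes tested. Without the library labelled siMlx replicate 3, 92 of 4021 rising genes were called higher (2.29%) and 96 lower (2.39%), and 43 of 1877 falling genes were called higher (2.29%) and 18 lower (0.959%), against 1.94 and 1.57% over all genes.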

How the data were processed

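RNA-seq libraries were made by the authors from pooled embryos with poly(A) priming, without strand marks or molecular identifiers. The authors aligned reads to mm9 with STAR and quantified RefSeq transcripts with StringTie, whose versions are 2.5.2b and 1.3.4 in the submitters' notes, with StringTie 1.3.3b in the file headers. The deposited values used here are transcript FPKM and coverage from the authors' StringTie records, not read counts. Coverage divided by FPKM gave the total of aligned bases of a library. The number of molecules behind a value is unknown.

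FPKM was summed over transcripts to 22619 genes, and 976 transcripts without a gene name were left out. Libraries of a comparison were rescaled to each other by a median ratio, taken on genes that reached 1 FPKM in each library. The limma test (version 3.58.1, R 4.3.3, with trend) used log2(FPKM + 1) of genes whose mean was 1 rescaled FPKM or higher. All tested genes entered the Benjamini-Hochberg adjustment, and a call needs an adjusted p below 0.05 with more than a 2-fold difference. The stage difference was an interaction term over the siMlx and siCtrl libraries of both stages. Single values were compared by exact permutation tests, two-sided (scipy 1.17.1, numpy 2.4.6 and pandas 2.3.3 under Python 3.11.15). The script was tested on simulated data. The build was checked on 244705 introns, of which 98.9% had GT and AG ends in mm9.

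Replicate numbers are shared by the groups and were checked for pairing. Genes were named by rule, as those called, the 10 largest differences each way among genes not called with a mean of at least 5 FPKM, an unadjusted p under 0.01 and no overlap of groups, the MLX, Mondo and MAX network, the members of each list with the lowest p, the siRNA targets, and the 5 largest each way among genes called without siMlx replicate 3. Genes at the next adjusted p, those with a stage difference, Txnip, Arrdc4, Zscan4c, Prdx5, Btg4, Wee2, Khdc3, Mir144 and the genes called against siEtv5 were named after their values were seen. The comparison, the 28 gene lists and the rules were chosen with earlier results of these data known, so they are no independent support. Some items are not reported here.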

Additional observations from a re-analysis of the deposited data

Results flagged for a closer look

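The log2 fold change of siMlx differed between 2-cell embryos and zygotes for 125 genes, by the interaction term in limma. For 9 of them all 6 zygote libraries were listed at 0, among them Hcrt, Snord15b, Mir717, Cx3cl1, 1600029D21Rik, 3830417A13Rik and D5Ertd605e, so their values restate the 2-cell difference and say nothing of an effect in zygotes. Others, such as Mir451, Ndrg1, Gstm1 and Tex13, were too low in zygotes to be tested there, so their values mostly restate the 2-cell difference as well. The effect was tested at both stages for 94 of the 125 genes. The genes named are given as the 2-cell minus the zygote log2 fold change. Among them were 11 genes more positive in 2-cell embryos. The values were 4.92 for Hcrt, 3.59 for Gatad2a, 3.30 for Tex13, 3.07 for Hist1h2bh, 3.06 for Psmg3, 2.88 for Gm5176, 2.79 for Ccdc166, 2.73 for Bhlhb9, 2.38 for Rpl29, 2.27 for Usf2 and 2.13 for Psmb6. In 2-cell embryos the siMlx values overlapped those of siEtv5 for Psmg3 and Bhlhb9 (5.68 and 8.29 FPKM in siEtv5) and lay above them for the others. For Tex13 the siEtv5 values, 9.32 and 7.27 FPKM, also lay above those of siCtrl (0.919, 0 and 1.41 FPKM).

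The others were more negative in 2-cell embryos. Among short transcripts the values were -4.37 for Mir451, -3.55 for Snord15b and -3.19 for Mir717. Among 2-cell and oocyte genes they were -3.13 for Zscan4d, -2.98 for Zscan4c, -2.71 for Zscan4f, -2.60 for Tcl1b1, -2.57 for Tcl1 and -2.23 for Tcl1b2. Among genes of signaling and transcription they were -3.84 for Hes1, -3.80 for Uts2r, -2.89 for Ndrg1, -2.89 for Cx3cl1, -2.88 for Tnfaip6, -2.67 for Shisa5, -2.34 for Id2 and -2.14 for Elf3. Among transporters and enzymes they were -3.44 for Chst5, -3.23 for Acaa1a, -2.60 for Slc10a6, -2.43 for Sepw1, -2.41 for Gstm1 and -1.80 for Elovl5. Among genes of the cytoskeleton and of vesicle traffic they were -2.58 for Rab7l1, -2.42 for Vps29, -2.34 for Tuba1b, -2.30 for Tuba1c and -2.18 for Psrc1. For the remaining genes they were -3.67 for Cypt3, -3.44 for Nxnl2, -3.41 for 0610040F04Rik, which overlaps Bhlhe40, -3.08 for 1600029D21Rik, which overlaps 2310014F07Rik, -2.88 for 3830417A13Rik and -2.34 for D5Ertd605e. The 2-cell siMlx values overlapped those of siEtv5 for Cx3cl1 (1.18 and 0.485 FPKM in siEtv5) and lay below them for the others of this paragraph. In 2-cell embryos the siMlx and siCtrl groups did not overlap for 112 of the 125 genes. The genes were called by a term that contains the 2-cell difference, which favours no overlap. Over all genes tested, every siMlx library was above every control for 10.9% and below every control for 15.0%.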

How the results depend on the processing

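The count of 1 gene called in 2-cell embryos became 0 with no filter, with a pseudocount of 0.1, with voom on estimated fragments and with all groups of the stage fitted together, and 76 (12 higher and 64 lower) with FPKM as deposited, where the median over all genes was -0.27. Chosen after seeing the data, a filter on FPKM as deposited gave 11 and leaving out gene models under 200 bases gave 0. Leaving out a library gave 0 to 371, with 371 without siMlx replicate 3, 68 without siMlx replicate 1 and 0 without siCtrl replicate 2 or 3. Without siCtrl replicate 1 the count was 1, but the gene was Mir17hg (higher) and not Mir451. In the 2-cell siCtrl and siMlx libraries the replicate numbers did not pair the samples (correlations of deviations 0.127, 0.066 and 0.0085), and the fit with a replicate block gave 1. Pairing in the zygote libraries was not checked. The stage difference went from 125 to 77, 100, 98, 62, 43 and 59 with a pseudocount of 0.1, no filter, 5 FPKM, FPKM as deposited, all groups and voom, to 0 with a replicate block, and to 18 to 281 without a library (18 without zygote siCtrl replicate 2 or 3, 20 without zygote siMlx replicate 1, 47 to 78 without zygote siMlx replicate 3, zygote siCtrl replicate 1 or any 2-cell siCtrl library, 81 without 2-cell siMlx replicate 2, 192 and 281 without 2-cell siMlx replicates 1 and 3). Against siEtv5 the 3 genes became 1, 0, 10, 10 and 7 with a pseudocount of 0.1, no filter, FPKM as deposited, all groups and voom, 5 without short models, 1223 with a replicate block, which left 1 residual degree of freedom, and 0 to 50 without a library (50 without siMlx replicate 1, 1 without siMlx replicate 2 and 0 without any other). Genes with a stage course in siEtv5 embryos numbered 6631, and 3818 to 6804 without a library, with 3818 and 3871 where a single siEtv5 2-cell library was left and was assumed to vary like the zygotes. Relative to all genes, and over the members tested with all libraries, the list medians kept their sign with FPKM as deposited and without each library, except for DNA replication, hypoxia, the MLX network, NDRG, other E-box factors, pentose phosphate and p53. For the sperm markers the median of 0.26 was -0.36 over the members tested without siMlx replicate 3. Mlx kept its side of the threshold but was removed by the filter at 5 FPKM. Of 2065 alternatives over 140 named genes, 1881 kept direction and side of the threshold, 146 passed it, 7 lost it and 31 turned, in 12 genes. With FPKM as deposited these were Mlxipl -0.21, Mxd1 -0.011, Mxd4 -0.078, Mxi1 -0.13, Mga -0.20, Mycn -0.23 and Ndrg4 -0.11, with voom Mlxipl -0.10, Mxd4 -0.025 and Mycn -0.50, and with a pseudocount of 0.1 Mycn -0.043. Without a library, log2 fold changes ranged from -0.31 to 0.28 for Mlxipl, -0.13 to 0.54 for Mxd1, -0.011 to 1.00 for Mxd3, -0.22 to 0.65 for Mxd4, -0.41 to 0.40 for Mxi1, -0.20 to 0.24 for Mga, -0.39 to 0.23 for Myc, -0.81 to 0.86 for Mycn, -0.21 to 0.20 for Ndrg4, -0.36 to 0.13 for Ldhc, -0.29 to 0.029 for Psmc3ip and -0.71 to 0.13 for Txnip. The causes were not tested.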
